A study of Arabidopsis thaliana with 5 samples.

Results

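The 10 genes described here are regulators that maintain the shoot apical meristem of Arabidopsis thaliana and draw the boundaries around the organs it forms. They were chosen by locus as the class I KNOX homeobox genes STM, KNAT1, KNAT2 and KNAT6, the stem cell regulators WUS, CLV1 and CLV3, and the CUP-SHAPED COTYLEDON genes CUC1, CUC2 and CUC3. All 10 had a probe on the array, and 9 of them were among the 26649 genes and unnamed transcripts that passed the filter on dim probes and were tested. These 9 were well above background on all 5 arrays, and WUS on 0. Total RNA of whole seedlings, 12 days old and grown on MS medium in long days, was hybridised to 1-colour Agilent arrays, of which 2 held wild type and 3 the Atino80-5 mutant. Atino80-5 is named for INO80, the gene of a chromatin remodelling ATPase; the labels give neither its lesion nor the accession background, and the groups share age, tissue and growth conditions. Nothing in the labels says that the samples of a genotype were grown separately, so the p-values cover only the spread among these hybridisations, part or all of which may be technical.

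KNOX homeodomain proteins keep cells of the shoot meristem undifferentiated, and STM is the member without which no shoot meristem is maintained. WUS, made in the organizing centre below the stem cells, promotes stem cell identity, and the stem cells secrete the CLV3 peptide, which acts through the receptor kinase CLV1 to restrain WUS. The CUC genes encode NAC transcription factors that separate cotyledons and leaves and help to switch on STM in the embryo. CUC1 and CUC2, but not CUC3, are targets of the microRNA miR164.

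On each array 77.3% to 81.6% of 43603 probes were well above background. Signals are given below after each array was scaled to a common 75th percentile of 4564, and are called scaled signals. INO80 separated the labelled genotypes, with scaled signals of 9623 and 9473 in wild type against 63.6, 54.3 and 59.8 in Atino80-5 for 1 probe, and of 135 and 126 in wild type against 516, 478 and 466 in Atino80-5 for the other. Slide 1 held wild type arrays 1 and 2 and then Atino80-5 arrays 1 and 2, at positions 1 to 4 in that order, and Atino80-5 array 3 lay on slide 2. Marker genes of other tissues were also called, where over all genes 30.5% were called higher and 26.7% lower. Root markers were higher for 7 of 9 genes and lower for 1, and their summed scaled signal was 12483 to 12795 in wild type and 14794 to 14898 in Atino80-5. The brightest root marker was the gene called lower, so the sum moved less than most of the list. Of the root markers 5 were called with at least a 2-fold change, and the median log2 change was 1.005. Flower markers were higher for 4 of 7 genes and lower for 1 (sums of 4365 to 4391 and of 7401 to 7431), and green leaf markers were lower for 4 of 5 genes (sums of 1748580 to 1755110 and of 1529350 to 1627580). Among the markers, PLT1, AP1, AP3 and LFY were not well above background on every array. The part of these values in the results below was not tested. In whole seedlings, a change in the number of meristem or boundary cells and a change in RNA per cell cannot be told apart.

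Of the 9 genes tested, STM, KNAT1, KNAT6 and CUC3 were higher in Atino80-5 and CUC1 and CUC2 lower, by 1.14-fold to 1.27-fold, while KNAT2, CLV1 and CLV3 did not pass the test. A call is an adjusted p under 0.05 in limma, adjusted over all genes tested. Calls in either direction made up 57.2% of all genes tested, 30.5% higher and 26.7% lower, so that 6 called genes of 9 is a share near the background. The median absolute change of the 9 genes was 0.31 on the log2 scale, against 0.20 over all genes, and none of them reached a 2-fold change, which 7.19% of all genes did with a call. For 7 of the 9 genes, and for 74.7% of all genes, the mutant arrays all lay on the same side of both wild type arrays.

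**Figure D1:**
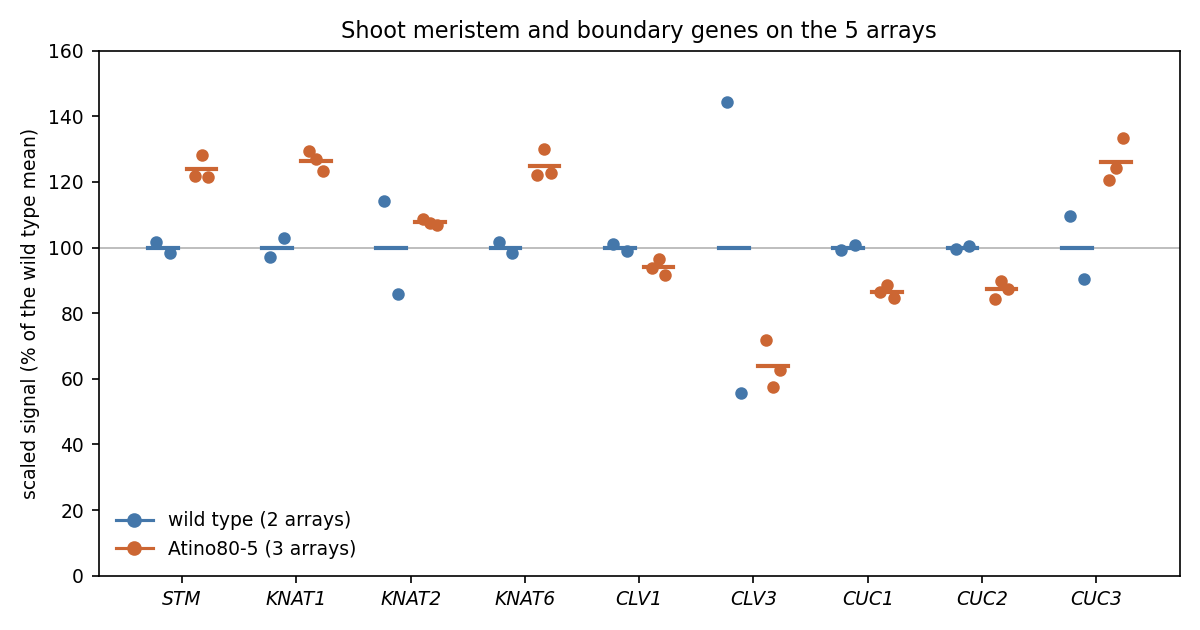
Scaled signal of the 9 tested genes on each array, as a percentage of the wild type mean of the gene (y axis), with wild type arrays in blue, Atino80-5 arrays in orange and short lines at the group means. All Atino80-5 points of STM, KNAT1 and KNAT6 lie above both wild type points, those of CUC1 and CUC2 lie below, and the wild type points of CLV3 stand at 144% and 55.7%.

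The KNOX genes STM, KNAT1 and KNAT6 rose by similar small amounts. STM (AT1G62360), which prevents differentiation in the meristem centre, gave scaled signals of 1228 and 1188 in wild type against 1471, 1548 and 1469 in Atino80-5. All 3 mutant arrays lay above both wild type arrays, and the rise was 1.24-fold (log2 change 0.31 ± 0.038 SE, 2 and 3 arrays, adjusted p = 0.00274, limma). KNAT1 (AT4G08150), also known as BREVIPEDICELLUS, acts in the meristem and in stem internodes. Its scaled signals were 1297 and 1376 in wild type against 1729, 1696 and 1648 in Atino80-5, again with no overlap, a rise of 1.27-fold (log2 change 0.34 ± 0.041, adjusted p = 0.00252). KNAT6 (AT1G23380), which acts redundantly with STM in the embryonic meristem and at organ boundaries, gave 868 and 841 in wild type against 1043, 1111 and 1049 in Atino80-5. It rose 1.25-fold (log2 change 0.32 ± 0.041, adjusted p = 0.00311). Changes of this size were common: 35.3%, 32.3% and 34.0% of all genes tested changed at least as much as STM, KNAT1 and KNAT6.

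KNAT2 (AT1G70510), the closest relative of KNAT6, did not pass the test. Its scaled signals were 532 and 400 in wild type against 507, 502 and 498 in Atino80-5, so that the mutant arrays lay close together between the wild type arrays. The log2 change was 0.12 with a 95% confidence interval from -0.21 to 0.46 (adjusted p = 0.455, limma). The wild type arrays differed 1.33-fold for this gene, and only 3.90% of all genes had a spread between the wild type arrays at least as large. The value therefore turned on which wild type array was kept. Without wild type array 1 the log2 change was 0.33, and without wild type array 2 it was -0.083. Either fit holds 1 wild type array, so its spread comes from the mutant arrays alone and no p-value is given. Within an array, KNAT2 relative to KNAT6 was lower in Atino80-5 by 0.20 on the log2 scale (exact permutation test over arrays, two-sided p = 0.2), and STM relative to KNAT1 differed by -0.032 (p = 0.6); the smallest p this design allows is 0.1. Close paralogs could share signal, and where the probes lie in these transcripts is not known here.

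STM and KNAT1 each had another probe, and neither of these passed the test. The other STM probe gave scaled signals of 166 and 156 in wild type against 166, 181 and 169 in Atino80-5, a log2 change of 0.095 ± 0.052 (adjusted p over probes = 0.185, limma). The mutant values were all higher than the wild type ones, by less than on the first probe. The other KNAT1 probe gave 156 and 164 in wild type against 165, 169 and 176 in Atino80-5, a log2 change of 0.089 ± 0.044 (adjusted p over probes = 0.148). On both genes the confidence interval of the other probe, up to 0.23 for STM and 0.20 for KNAT1, ended below the estimate of the first probe. KNAT2 and KNAT6 had 1 probe each.

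**Figure D2:**
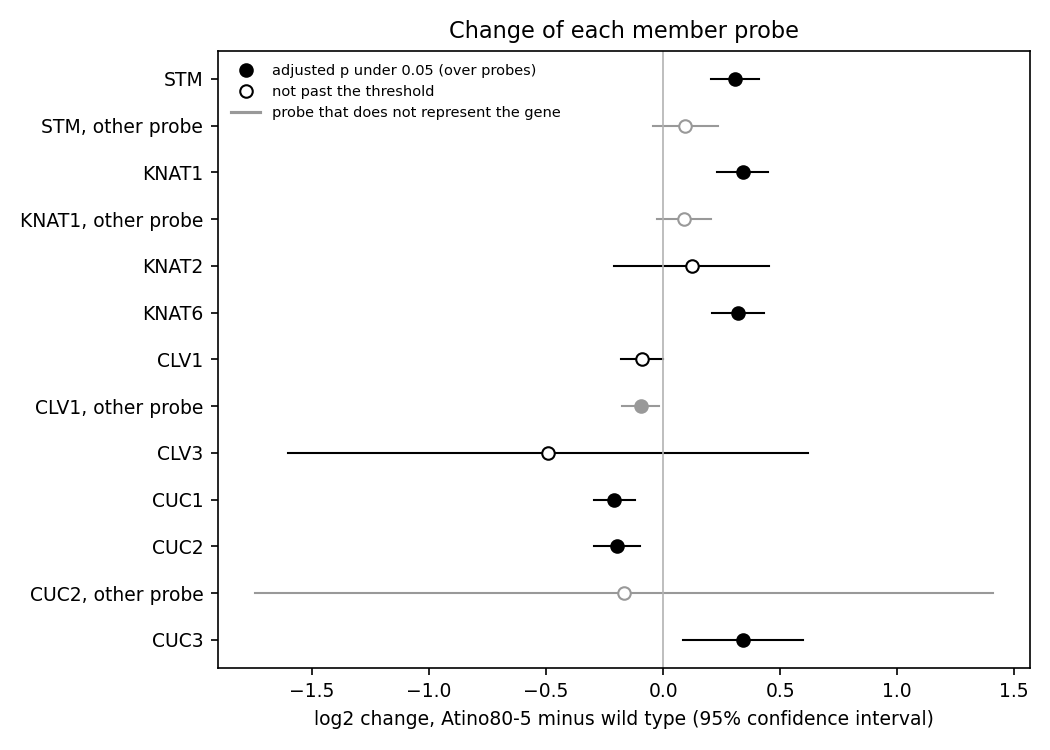
Log2 change of every tested probe of the 9 genes (x axis, Atino80-5 minus wild type) with its 95% confidence interval, filled where the adjusted p over probes was under 0.05 and grey for probes that do not represent the gene. The representing probes of STM, KNAT1 and KNAT6 lie at 0.31 to 0.34, their other probes at 0.095 and 0.089, and the interval of CLV3 runs from -1.60 to 0.62.

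The stem cell regulators did not pass the test or could not be measured. WUS (AT2G17950), which encodes the homeodomain protein of the organizing centre, was not well above background on any array. Its scaled signals of 4.02 and 5.52 in wild type against 3.83, 4.86 and 5.82 in Atino80-5 were below the lowest signals of probes well above background, 11.6 to 21.4 on the 5 arrays, so no fold is given. CLV3 (AT2G27250), the peptide ligand, was dim but well above background on all 5 arrays, with scaled signals of 61.7 and 23.9 in wild type against 30.8, 24.6 and 26.8 in Atino80-5. The wild type arrays differed 2.59-fold, and the mutant arrays lay near the lower of them. The log2 change was -0.49 with a 95% confidence interval from -1.62 to 0.64 (adjusted p = 0.375, limma). Without wild type array 1 it was 0.19, and without wild type array 2 it was -1.18. The direction of CLV3 therefore rests on wild type array 1. Each of these fits holds 1 wild type array, so no p-value is given.

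CLV1 (AT1G75820), the receptor kinase that perceives CLV3, was measured by 2 bright probes. The representing probe gave scaled signals of 14964 and 14629 in wild type against 13867, 14273 and 13562 in Atino80-5. All mutant arrays were lower, by 1.06-fold on average (log2 change -0.090 ± 0.034, adjusted p = 0.0797, limma), which did not pass the threshold. The other probe gave 7212 and 7055 in wild type against 6624, 6782 and 6608 in Atino80-5, a log2 change of -0.097 ± 0.029 (adjusted p over probes = 0.0449). With each array scaled by its median, which moved the median change of all genes from 0.0046 to -0.052, the representing probe also passed (log2 change -0.15, adjusted p = 0.0231). CLV1 relative to CLV3 within an array was higher in Atino80-5 by 0.40 (exact permutation test, two-sided p = 0.7), a difference that became -0.27 without wild type array 1.

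CUC1 and CUC2 fell together. CUC1 (AT3G15170) gave scaled signals of 148 and 151 in wild type against 129, 132 and 126 in Atino80-5, and fell 1.16-fold (log2 change -0.21 ± 0.032, adjusted p = 0.00554, limma). CUC2 (AT5G53950), which also shapes the serrations of leaf margins, gave 249 and 251 in wild type against 211, 224 and 219 in Atino80-5, and fell 1.15-fold (log2 change -0.20 ± 0.036, adjusted p = 0.00978). In neither gene did the genotypes overlap, and the wild type arrays were within 1.02-fold of each other. The ratio of CUC1 to CUC2 within an array changed by -0.012 on the log2 scale (exact permutation test, two-sided p = 0.7). A fall of this size was ordinary here, since 49.1% and 51.2% of all genes tested changed at least as much as CUC1 and CUC2. The other CUC2 probe was near background, with scaled signals of 22.1 and 19.8 in wild type against 18.5, 37.2 and 9.33 in Atino80-5, and its interval from -1.75 to 1.41 was far wider than a change of this size. The CUC2 call was lost without wild type array 1 (log2 change -0.20) and without wild type array 2 (log2 change -0.19). Each of these fits holds 1 wild type array, so its spread comes from the mutant arrays alone.

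CUC3 (AT1G76420), which acts in the same boundaries without being a miR164 target, moved the other way. Its scaled signals were 177 and 146 in wild type against 195, 201 and 215 in Atino80-5. All mutant arrays were above both wild type arrays, and the rise was 1.27-fold with a confidence interval from 1.06 to 1.52 (log2 change 0.34 ± 0.099, adjusted p = 0.0388, limma). This call was the least stable of the 6, since it held under 5 of 17 alternatives. Of these alternatives, slide 1 only, the slide as a block and leaving out Atino80-5 array 3 are the same fit. The adjusted p of CUC3 ranged from 0.0105 to 0.118. Within slide 1 its log2 change was 0.30 (adjusted p = 0.0926, limma). Without wild type array 2, the lower of the wild type arrays, it was 0.20, and that fit holds 1 wild type array. CUC2 relative to CUC3 within an array was lower in Atino80-5 by 0.54 on the log2 scale, with group means of 0.099 ± 0.072 in Atino80-5 (SD, n = 3) and 0.64 ± 0.21 in wild type (SD, n = 2). The arrays did not overlap in this difference, and the exact permutation test over arrays gave the smallest two-sided p the design allows, 0.1.

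Within slide 1 alone, with 2 wild type and 2 mutant arrays, the other called genes kept their calls. The log2 changes there were 0.32 for STM, 0.36 for KNAT1, 0.33 for KNAT6, -0.19 for CUC1 and -0.20 for CUC2, with adjusted p from 0.00745 to 0.0305 (limma). With the slide as a block the estimates were the same, because it is the same fit. On slide 1 the wild type arrays came before the Atino80-5 arrays, so genotype and position cannot be told apart there.

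**Figure D3:**
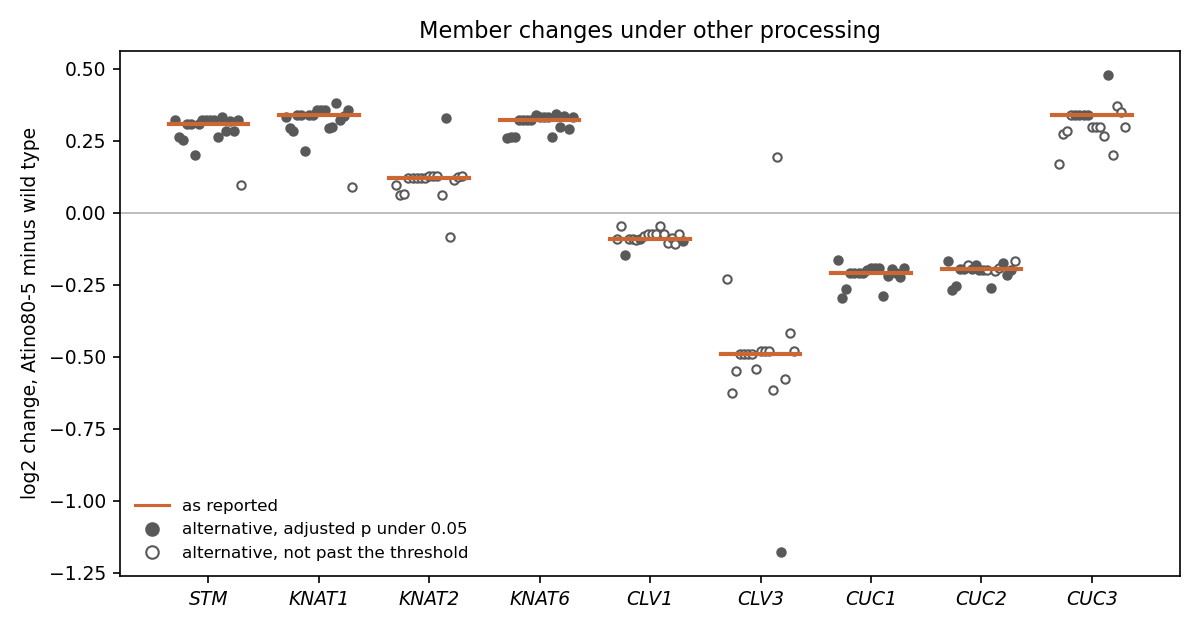
Log2 change of the 9 genes (y axis) under each alternative, with filled points where the adjusted p was under 0.05, open points where it was not, and an orange line at the reported value. STM, KNAT1, KNAT6 and CUC1 stay on one side of 0 with few open points, CUC3 has mostly open points, and KNAT2 and CLV3 cross 0.

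Lists of genes that act with the members are given by their counts, to be read against the 57.2% of all genes called (30.5% higher and 26.7% lower). Of 10 partners and repressors of KNOX proteins, 3 were higher, 3 lower and 4 not called, shares near those over all genes, with a median log2 change of 0.044. BLH4 (SAW2), a BEL1-like homeobox gene whose product restrains KNOX expression in leaf margins together with BLH2, gave scaled signals of 8026 and 7922 in wild type against 2175, 2148 and 2158 in Atino80-5, and fell 3.69-fold (log2 change -1.88 ± 0.025, adjusted p = 2.24e-05, limma). This was a larger change than that of any of the 9 genes. AS2, whose product represses KNOX genes in leaves with AS1, fell 1.60-fold (adjusted p = 0.00123), from 382 and 383 to 237, 258 and 224. AS1 itself, named after its value was seen, rose 1.19-fold (adjusted p = 0.00156). BLR, also called PENNYWISE, encodes a BEL1-like partner of STM and KNAT1 and rose 1.59-fold (adjusted p = 0.000504), and BOP1, a boundary gene upstream of AS2, fell 1.37-fold (adjusted p = 0.000708). The class II KNOX genes, which favour differentiation, were split, with KNAT7 and KNAT3 higher by 1.33-fold and 1.20-fold, KNAT5 lower by 1.41-fold and KNAT4 not called (log2 change -0.099).

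Of 5 hormone genes downstream of KNOX proteins, 4 were higher and 1 lower, where 57.2% of all genes were called (30.5% higher and 26.7% lower). With 5 genes the called share says little, and the list was not tested against other genes. IPT7, a cytokinin synthesis gene that STM activates, rose 1.74-fold (log2 change 0.80 ± 0.091, adjusted p = 0.00209, limma), from 114 and 138 to 214, 216 and 225. GA20OX1, a gibberellin synthesis gene that KNOX proteins repress, rose 2.18-fold (adjusted p = 6.36e-05), from 215 and 212 to 476, 466 and 450. The gibberellin-inactivating oxidase genes moved apart, with GA2OX2 1.33-fold higher (adjusted p = 0.00219) and GA2OX4 1.61-fold lower (adjusted p = 0.000643).

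Of 9 receptor and signalling genes around CLV1, 5 were higher, 3 lower and 1 not called, where 57.2% of all genes were called; their median log2 change was 0.10. CLV2 and CRN, whose products form a CLV3 receptor complex separate from CLV1, rose 1.48-fold and 1.45-fold (adjusted p = 0.000245 and 0.000205, limma). CLV2 went from 3506 and 3603 to 5170, 5365 and 5242, and CRN from 1565 and 1576 to 2246, 2319 and 2283. PLL1, a phosphatase gene acting downstream, rose 1.37-fold. CLE40, which encodes the CLV3-related peptide known from the root, fell 1.52-fold (adjusted p = 0.000902, limma). CLE40 was dim but well above background on all 5 arrays, and went from 48.2 and 48.7 to 30.1, 33.6 and 31.7. Of 8 WOX and HAM genes, 3 were higher, 3 lower and 2 not called. WOX5, which marks the organizing centre of the root, fell 2.83-fold (log2 change -1.499 ± 0.063, adjusted p = 0.000124), from 370 and 356 to 123, 138 and 124. WOX1, of lateral organ margins, rose 2.04-fold (adjusted p = 0.000228), WOX2, of the embryo, rose 1.31-fold, and HAM3, whose product is a WUS cofactor, fell 1.14-fold.

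Of 11 other boundary and axillary meristem genes tested, 7 were higher, 1 lower and 3 not called, where 30.5% of all genes were higher and 26.7% lower. Their median log2 change was 0.40, against 0.0046 over all genes, and the list was not tested against other genes. LAS, a GRAS gene needed for axillary meristems, gave 42.2 and 38.7 in wild type against 60.6, 62.9 and 59.1 in Atino80-5, and rose 1.50-fold (adjusted p = 0.000952, limma). The MYB genes RAX1, RAX2 and RAX3, which act in axillary bud formation, rose 1.49-fold, 1.42-fold and 1.32-fold (adjusted p = 0.00106, 0.000532 and 0.00137). The gene lower was JLO, named after its value was seen, at 1.19-fold. Of 5 TCP genes that restrict CUC expression, 3 were lower, 0 higher and 2 not called, a called share near the 57.2% of all genes. The 5 log2 changes ran from -0.40 to -0.036, and this small list was not tested against other genes. TCP3 fell 1.32-fold, from 5473 and 5690 to 4186, 4248 and 4254 (adjusted p = 0.000585), TCP24 1.20-fold and TCP2 1.12-fold, and TCP4 was not called (log2 change -0.061). No probe was matched to the miR164 precursors, so they were not measured here. Of the 5 HD-ZIP III genes, which promote adaxial and meristem identity, PHV and REV fell by 0.26 and 0.10 on the log2 scale and the other 3 were not called (ATHB8 0.059, PHB -0.015). Over all companion lists 24 of 57 genes tested were higher and 17 lower, or 71.9% called against 57.2% of all genes, with a median absolute log2 change of 0.27 against 0.20. Nearly all of these genes were well above background on all 5 arrays, and with that filter 60.7% of all genes were called.

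**Figure D4:**
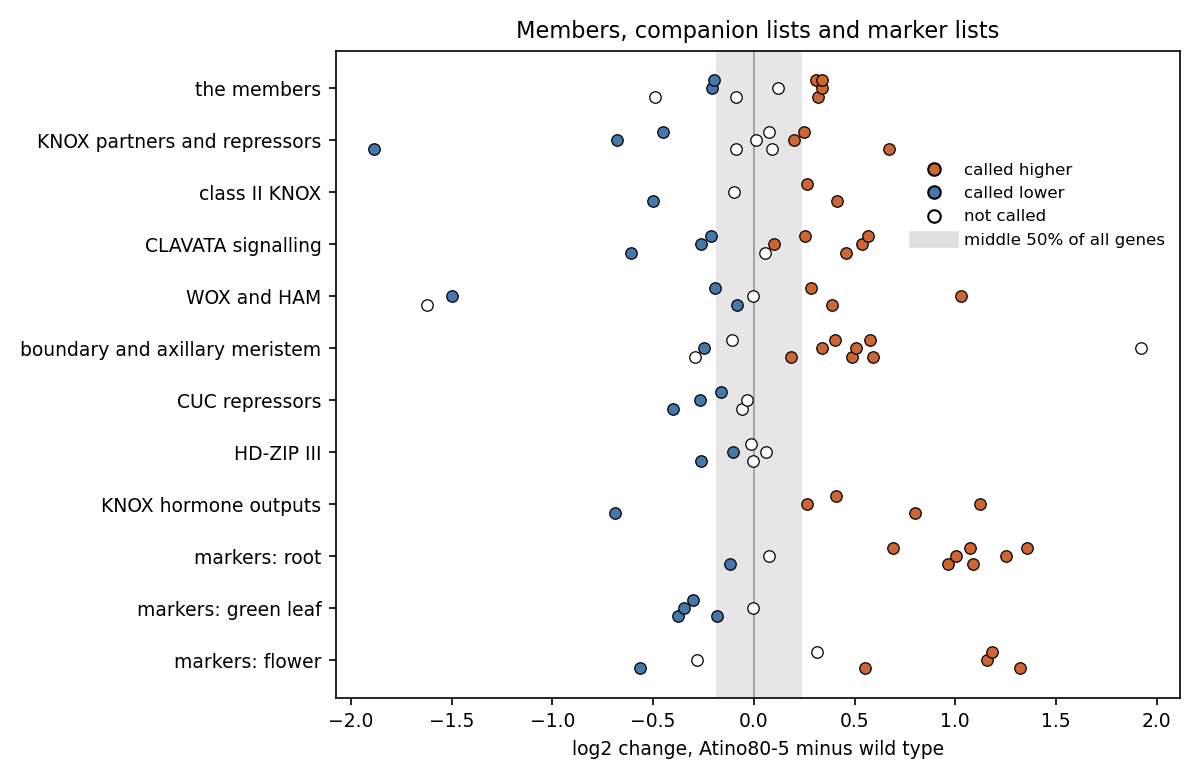
Log2 change (x axis) of the tested members, of each companion list and of the tissue marker lists, with 1 point per gene, orange for called higher, blue for called lower and white for not called; the grey band spans the middle 50% of all genes, -0.18 to 0.24. The 6 called members lie just outside the band, BLH4 at -1.88 and WOX5 at -1.499 lie far to its left, and root markers have a median of 1.005.

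The genes most like a member were found by the root mean square difference of their log2 values over the 5 arrays, each gene centred on its own mean, among 9227 other genes with a symbol. Closest to STM were NDL2 (0.0066), KNAT6 (0.0085) and the DELLA gene RGL1 (0.012). A difference under 0.1 from STM was found for 1755 genes, so the likeness is not rare. Closest to CUC2 were APS3 (0.010), TOM22-I (0.011) and BSM (0.011), with 3166 genes within 0.1.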

How the data were processed

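The deposited scanner files hold intensity values per spot. Per the file headers, Agilent Feature Extraction 10.7.3.1 subtracted background and detrended within each array; per the submitters' processing notes, the version was 9.1. The authors' deposited value table holds log2 values, which matched the log2 processed signal of each array (correlation 0.9994 or more) and have the same 75th percentile, 12.15; the table was taken as quantile normalized and not centred per gene (column medians 9.6208, 9.6213, 9.6216, 9.6213 and 9.6213), and used as an alternative.

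Control spots (1417 per array) and 7 to 14 outlier spots were left out, and no spot was saturated. Log2 processed signals were scaled to the 75th percentile. Probes well above background on at least 2 of 5 arrays were kept (35190 of 43603), and accessions were matched to loci of the RefSeq table of TAIR10.1, names only (34285 probes matched, 9318 did not). The brightest kept probe represented a gene. Genotypes were compared by limma 3.58.1 in R 4.3.3, with 3 residual and 4.55 total degrees of freedom, and Benjamini-Hochberg adjustment over genes. Data were simulated for this comparison with 26649 genes, of which 50 were changed at each size. In them 24% of changes of 0.25 on the log2 scale, 74% of 0.5 and 88% of 1 were recovered, with 7 false calls. The adjusted p depends on the share of genes that change, and 57.2% of genes were called in the real data. The recovered shares therefore do not carry over to the members. The number of arrays limits precision.

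The members and lists were chosen with earlier results of these data known. Genes named are the members, up to 4 of each list with the smallest p, the 3 most like STM and CUC2 (those of CLV3 are not reported here), and INO80; others are said to be named after their values were seen. Of the marker lists, counts, sums, a median and a plot are given, and the genes not above background on every array are named. Alternatives were normexp background correction (on median spot signals, offset 50), quantile and median scaling, other filters, probe means, other probes, eBayes settings, array weights, slide and replicate blocks, the authors' table, a minimum change of 2-fold, and 1 array left out at a time.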

Additional observations from a re-analysis of the deposited data

How the results depend on the processing

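STM, KNAT1, KNAT6 and CUC1 kept direction and call under every alternative run on their representing probe except the 2-fold minimum, which no member reached; the other probes of STM and KNAT1 gave log2 changes of 0.095 and 0.089, past no threshold. CLV1 passed with median scaling (-0.15), trended and robust eBayes (-0.090) and its other probe (-0.097). CUC2 lost its call with the mean of its probes (-0.18), its other probe (-0.17) and the replicate number as a block (-0.20). CUC3 lost its call with normexp (0.17), quantile normalization (0.27), median scaling (0.28), no filter (0.34) and the authors' table (0.27). It also lost it with slide 1 only, which is the same fit as the slide as a block, and with the replicate number as a block (0.30 each). Leaving out each array in turn gave -0.083 to 0.33 for KNAT2, -1.18 to 0.19 for CLV3, -0.22 to -0.17 for CUC2 and 0.20 to 0.48 for CUC3. Leaving out a mutant array gave 3 members higher and 2 lower, and 1 was lower with probe means or the replicate block. Leaving out a wild type array keeps 1 in that group, and the spread of that fit comes from the mutant arrays alone. With a minimum of 2-fold, 0 members and 1215 genes were called higher and 0 members and 701 genes lower, against 8128 and 7118 genes without it. The CUC2 and CUC3 difference was -0.34 with normexp and -0.68 to -0.39 leaving out arrays, that of CLV1 and CLV3 -0.27 to 1.07, and that of KNAT2 and KNAT6 -0.38 to -0.017. With median scaling 42.8% of calls were higher, against 53.3%. Arrays with the same replicate number did not deviate together (correlations 0.038 and 0.005 across genes), and the block gave 6275 genes higher and 4929 lower. Atino80-5 array 3 is the only array in its replicate block, so it adds nothing to that comparison. Beyond the settings' own construction (fewer arrays, a dimmer probe), causes were not tested. WUS lies under the arrays' detection limit, and CLV3 is near it.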

Other observations

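A pair of companion genes, named after their values were seen, stood apart on single arrays. PRS (WOX3), a gene of lateral organ margins, gave scaled signals of 283 and 40.4 in wild type against 33.5, 29.8 and 41.8 in Atino80-5, and was not called (adjusted p = 0.174, limma). It was high on wild type array 1, the array on which CLV3 was high. DRNL, which marks organ founder cells, gave 16.5 and 12.1 in wild type against 12.5, 16.6 and 745 in Atino80-5. It was high on Atino80-5 array 3 and not called (adjusted p = 0.454).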
